A study of Mus musculus with 6 samples.

Results

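Eukaryotic translation initiation factors (eIFs) are the proteins that bring a ribosome, the initiator tRNA and an mRNA together at the start codon. The genes for these factors were compared between stretched and static endothelial cells of the mouse liver sinusoid. They were chosen by name: every row of the count table whose symbol begins with Eif1 to Eif6 was taken, except the Eif2ak kinases and pseudogenes marked -ps. The rule found 54 of 23337 rows. At least 10 reads in 3 libraries were present for 53 of them, and each of these had at least 284 reads in every library, so the minimum removed none for being low in 1 group. The one left out, Eif4e1b, had 0 reads in all 6 libraries, which allows up to 0.0593 CPM (counts per 1e6 reads, on library sizes scaled by TMM) in the smallest library, for counting error only. Of the 53, 4 are not initiation factors: Eif2c1, Eif2c2, Eif2c3 and Eif2c4 are older symbols of the Argonaute genes Ago1, Ago2, Ago3 and Ago4, whose products carry microRNAs. They are described separately at the end.

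All 6 libraries came from primary sinusoidal endothelial cells that had been pulled out of mouse liver on antibody-coated magnetic beads, cultured in medium with fetal bovine serum, plated on collagen IV and serum starved. Control libraries (replicates 2, 3 and 4) are from unstretched cells and stretch libraries (replicates 1, 2 and 4) from cells under 4% cyclic stretch at 1 Hz on a Flexcell device. The strain, age and sex of the mice, the length of the stretch and whether replicates are separate isolations are not stated by the labels, so p-values measure the spread between these libraries, which may be technical. Per library, 48948948 to 68489956 reads were assigned to genes, with every stretch total above every control total.

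In textbook initiation, eIF2 carries the initiator tRNA to the small ribosomal subunit, and eIF2B recharges eIF2 with GTP. The scaffold eIF3 holds the small subunit, and eIF4F binds the mRNA cap and unwinds the leader. Scanning for the start codon is controlled by eIF1, eIF1A and eIF5, and eIF5B joins the large subunit. Cells restrain initiation by phosphorylating eIF2 and by 4E-binding proteins that keep eIF4E away from eIF4G.

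Transcripts of the initiation factors were mostly higher in stretched cells, by small amounts. Of the 53 genes, 33 (62.3%) rose, 4 (7.55%) fell and 16 did not pass, by edgeR's quasi-likelihood test at an adjusted p of 0.05. Over all 14222 genes tested, 21.4% were called higher and 22.6% lower. The median log2 fold change of the 53 was 0.24, beside -0.01 for all genes tested, and 25.1% of all genes tested lay above that median. Without the Argonautes, 32 of 49 rose and 1 fell, Eif4ebp2. In 34 of the 53 genes all stretch libraries lay above all control libraries and in 5 below them, against 26.7% and 29.2% of all genes. Among the 49 these counts were 33 and 2. The called genes given by library below were mostly picked by small p, so separate groups in them are no added support. Summed over the 49 genes, the level was 10211, 10467 and 10115 CPM in control replicates 2, 3 and 4. It was 12999, 12556 and 13239 CPM in stretch replicates 1, 2 and 4. The sum without the most abundant RNA helicase gene, Eif4a1, lay between 9132 and 9403 CPM in control and between 11064 and 11562 CPM in stretch libraries.

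**Figure D1:**
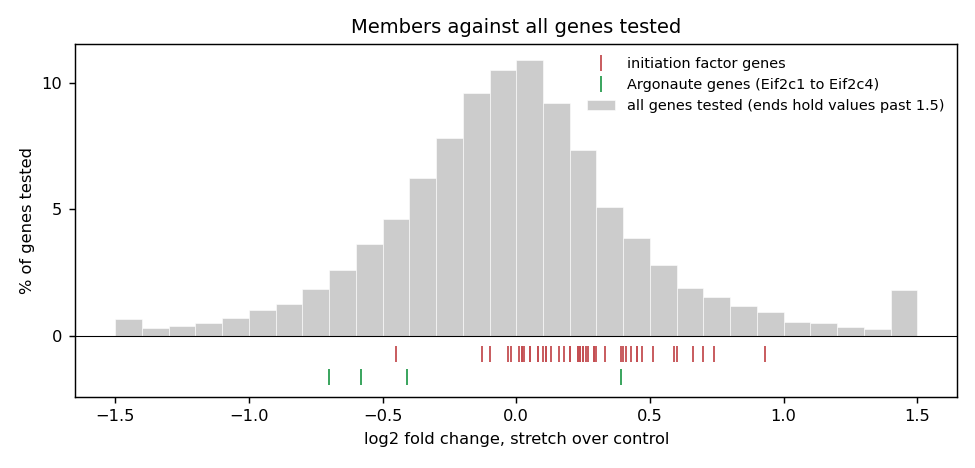
Log2 fold change of stretch over control (x axis) for all 14222 genes tested, as the percentage of genes in bins of 0.1 (bars, the outermost holding all values past 1.5), with each initiation factor gene (red ticks) and each Argonaute gene (green ticks) below. Most red ticks lie to the right of 0, while 3 of the 4 green ticks lie to the left.

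Most of the increases were under 1.5-fold. Against a minimum change of 1.2-fold (glmTreat in edgeR), 13 genes were called higher and 3 lower, where 8.51% and 9.33% of all genes were called. The 13 were Eif2s1, Eif2s2, Eif2b3, Eif1, Eif1a, Eif5, Eif3d, Eif3g, Eif3j, Eif4a1, Eif4e, Eif5a and Eif6, and the 3 were Eif4ebp2, Eif2c1 and Eif2c4. With library sizes alone as scaling, which moved the median of all genes from -0.01 to -0.11, 29 members were called higher and 5 lower. All genes then split into 14.7% higher and 30.2% lower. The authors' deposited table gives fold changes and FDR values for the same libraries. At an FDR of 0.05, 32 members were higher and 4 lower there, where 12.3% and 12.2% of its 23336 rows were. These 2 shares include genes with few or no reads (4781 genes of the count table had none). They are therefore not on the same base as the shares over the 14222 genes tested. For 52 of the 53 genes the call there and the call here were the same. The log2 fold changes of the 53 were equal to 2 decimals, so this is not a separate check.

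**Figure D2:**
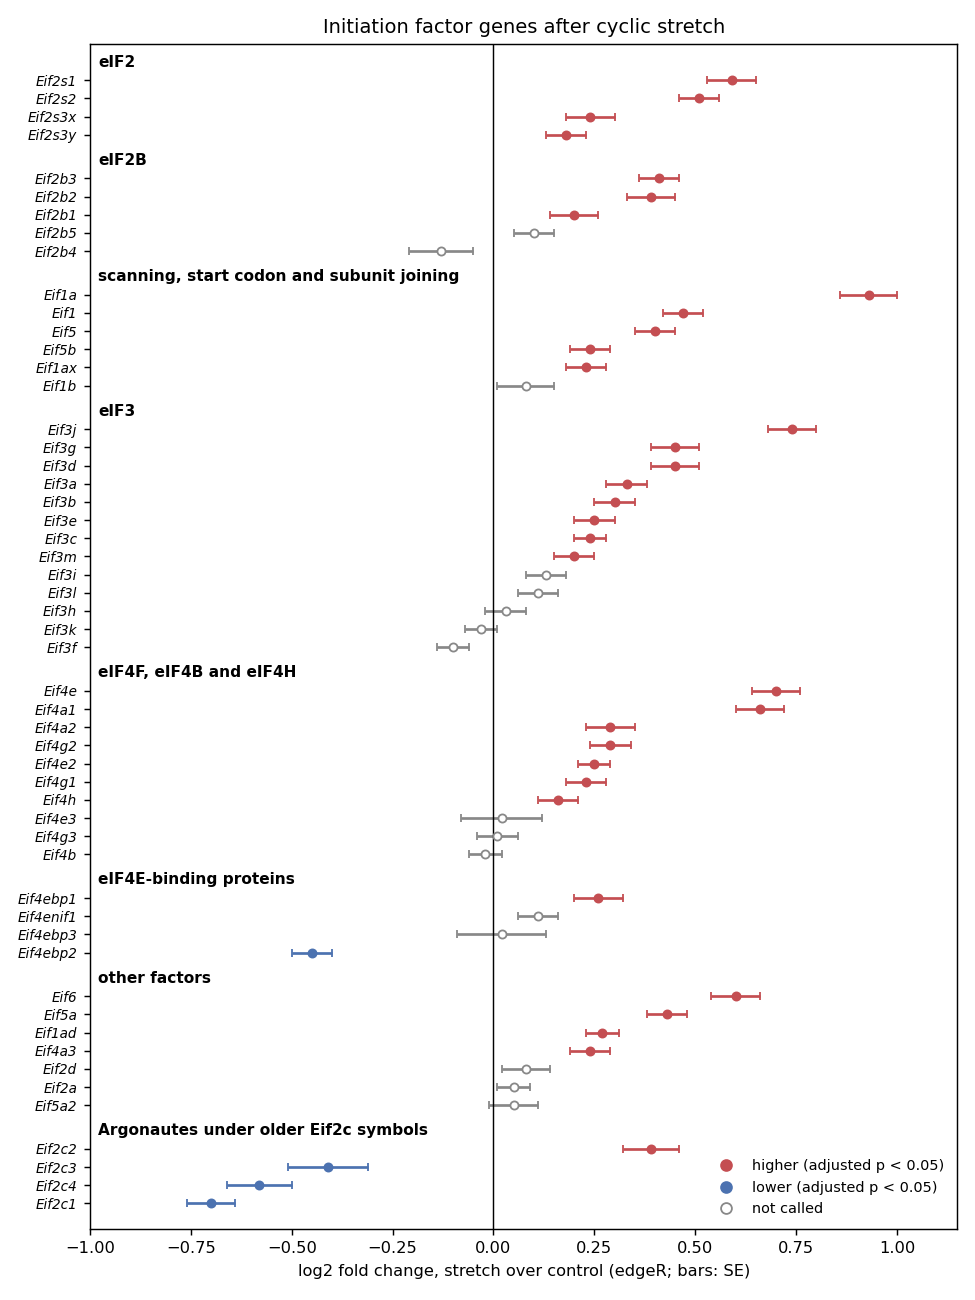
Log2 fold change of stretch over control for each of the 53 genes (points) with its SE (bars), grouped by factor complex; red and blue points passed an adjusted p of 0.05 in edgeR and open points did not. Eif1a, Eif3j, Eif4e and Eif4a1 lie farthest to the right and Eif2c1 farthest to the left.

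Markers of the labelled cell type were abundant: Stab2, a scavenger receptor of sinusoidal endothelium, was at 1362 to 1840.3 CPM. Summed over 10 markers of this cell type, levels were 7964 to 9066 CPM in control and 5814 to 6755 CPM in stretch libraries. Sums over 10 general endothelial markers overlapped, at 8911 to 9918 CPM in control and 8351 to 9006 CPM in stretch libraries. Called lower were 8 of the 10 sinusoidal and 6 of the 10 general markers, against 22.6% of all genes, and 0 were called higher. Markers of other liver cells also differed between the groups. Called higher were 9 of 12 hepatocyte, 8 of 9 tested macrophage and 3 of 5 cholangiocyte markers, against 21.4% of all genes. Of these 3 lists 0 markers were called lower, and 0 of 8 tested stellate cell and fibroblast markers were called in either direction. For 12 hepatocyte markers the sum was 73.0 to 93.2 CPM in control libraries, 124 and 136 CPM in stretch replicates 4 and 2 and 609.7 CPM in stretch replicate 1. For 11 macrophage markers it was 79.3 to 94.2 CPM in control and 113 to 156 CPM in stretch libraries, and for 5 cholangiocyte markers 80.9 to 107 and 141 to 167 CPM. Sums over 9 stellate cell and fibroblast markers overlapped (83.7 to 94.6 and 66.4 to 110.3 CPM). Lymphocyte and blood cell markers summed to 0.791 to 1.95 CPM, with Nkg7 and S100a9 at 0 reads throughout. Without stretch replicate 1, 32 members were called higher and 4 lower, where 18.1% and 19.0% of all genes were. The part of other cell types in the results was not tested, and in bulk RNA more cells of a type cannot be told apart from more RNA per cell.

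Counts by complex, here and below, stand beside the 21.4% of all genes tested that were called higher. At the 1.2-fold minimum, 2 genes of eIF2, 1 of eIF2B and 3 for scanning and subunit joining were called higher. So were 3 of eIF3, 2 of eIF4F with eIF4B and eIF4H, and 2 remaining factors, where 8.51% of all genes were. All 4 genes of eIF2 were higher, with a median log2 fold change of 0.38. Eif2s1 encodes eIF2 alpha, the subunit that stress kinases phosphorylate (chromosome 12, 78862072 to 78887010, GRCm38). It was at 115, 128 and 118 CPM in control replicates 2, 3 and 4 and at 188, 173 and 184 CPM in stretch replicates 1, 2 and 4. The groups were well apart, and the log2 fold change was 0.59 ± 0.06 (estimate ± SE, edgeR adjusted p = 0.000119). Eif2s2 encodes eIF2 beta, which contacts eIF5 and eIF2B. Its values were 136, 134 and 128 CPM in control and 199, 181 and 187 CPM in stretch libraries, a 1.43-fold rise (log2 fold change 0.51 ± 0.05, edgeR adjusted p = 0.000160).

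The gamma subunit, which binds the initiator tRNA and GTP, has an X-linked and a Y-linked gene in mouse, and both were expressed. Eif2s3x rose from 203, 200.0 and 186 CPM to 247, 224 and 226 CPM (log2 fold change 0.24 ± 0.06, edgeR adjusted p = 0.00810). Its Y-linked copy Eif2s3y was at 49.9, 49.6 and 51.2 CPM in control and 59.8, 54.4 and 56.7 CPM in stretch libraries (log2 fold change 0.18 ± 0.05, edgeR adjusted p = 0.0178). Neither copy had overlapping groups. The call of Eif2s3y was lost with library sizes alone (adjusted p = 0.172) and when control replicate 2 (0.0599), control replicate 3 (0.0558) or stretch replicate 1 (0.0564) was left out. Xist, the noncoding RNA of the inactive X chromosome, was at 0 to 0.138 CPM, so all 6 libraries carried the Y-linked transcript with almost no Xist. The ratio of Eif2s3x to Eif2s3y in RPKM (length-scaled read counts per library, as deposited) was 2.01, 1.99 and 1.79 in control and 2.04, 2.03 and 1.97 in stretch libraries. It did not separate the groups (difference of log2 ratios 0.06, exact two-sided permutation p = 0.300). Of the 50-base windows of Eif2s3x transcripts in GENCODE vM21, 35.4% also occur in transcripts of other genes, and 0 of those of Eif2s3y do. Part of the Eif2s3x reads could thus come from such copies.

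Subunits of eIF2B, the exchange factor that resets eIF2, differed among themselves: 3 of 5 rose and 0 fell. Eif2b3, a catalytic-side subunit, was at 29.2, 30.4 and 29.6 CPM in control and 39.1, 38.8 and 41.0 CPM in stretch libraries (log2 fold change 0.41 ± 0.05, edgeR adjusted p = 0.000326). Eif2b2, of the regulatory part, rose from 93.6, 95.0 and 103 CPM to 136, 117 and 129.9 CPM (log2 fold change 0.39 ± 0.06, edgeR adjusted p = 0.00162). Both kept clear gaps between the groups. Eif2b1 had a smaller difference, from 28.0, 28.8 and 30.1 CPM to 32.4, 31.7 and 36.0 CPM (log2 fold change 0.20 ± 0.06, edgeR adjusted p = 0.0317). Its call was lost with library sizes alone (adjusted p = 0.209) and when control replicate 2 (0.112), control replicate 3 (0.0817) or stretch replicate 4 (0.0957) was left out. The catalytic subunit gene Eif2b5 was at 75.3, 83.1 and 76.0 CPM in control and 80.4, 84.5 and 86.2 CPM in stretch libraries. These ranges overlapped and the gene did not pass (log2 fold change 0.10 ± 0.05, edgeR adjusted p = 0.168). Eif2b4, at a log2 fold change of -0.13 ± 0.08, was not called (edgeR adjusted p = 0.230), yet was called lower without stretch replicate 4 (adjusted p = 0.0459).

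Among genes for scanning, start codon choice and subunit joining, 5 of 6 rose. Eif1a (chromosome 18, 46597704 to 46610225) had the largest log2 fold change of the 53 members, 0.93 ± 0.07 (edgeR adjusted p = 6.03e-05). Its product, eIF1A, sits in the decoding site of the small subunit and promotes scanning. It was at 110.0, 116 and 112 CPM in control replicates 2, 3 and 4 and at 226, 192 and 222 CPM in stretch replicates 1, 2 and 4, which is 1.90-fold. The X-linked gene for eIF1A, Eif1ax, rose less, from 88.5, 88.8 and 83.9 CPM to 101, 98.7 and 107 CPM (log2 fold change 0.23 ± 0.05, edgeR adjusted p = 0.00528). No 50-base window of the Eif1ax transcripts of GENCODE vM21 occurs in another gene's transcripts, and 2.62% of those of Eif1a do.

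Eif1, whose product guards against wrong start codons, rose from 545, 547 and 559 CPM to 743, 748 and 799 CPM (log2 fold change 0.47 ± 0.05, edgeR adjusted p = 0.000168). Eif5, the GTPase-activating protein of eIF2, rose from 403, 418 and 413 CPM to 544, 513 and 569.8 CPM (log2 fold change 0.40 ± 0.05, edgeR adjusted p = 0.000513). These 2 factors oppose each other at the start codon, and their genes rose by similar amounts. Eif5b, the subunit-joining GTPase, rose 1.18-fold (edgeR adjusted p = 0.00740). Eif1b, a close relative of Eif1, was at 24.1 to 25.3 CPM in control and 24.2 to 27.8 CPM in stretch libraries and did not pass (edgeR adjusted p = 0.375). In RPKM the ratio of Eif1 to Eif1b was 16.4, 16.4 and 17.6 in control and 23.3, 21.2 and 21.8 in stretch libraries.

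The genes of eIF3 differed among themselves. Of 13, 8 rose, 0 fell and 5 did not pass, with log2 fold changes from -0.10 to 0.74 and a median of 0.24. Eif3j, which encodes the loosely bound subunit at the mRNA entry channel, rose most (chromosome 2, 122028623 to 122053629). It was at 131, 130.4 and 118 CPM in control and 222, 199.8 and 213 CPM in stretch libraries, 1.67-fold higher (log2 fold change 0.74 ± 0.06, edgeR adjusted p = 7.98e-05). The table also lists Gm9781, at nearly the same position, with counts within 1 read of those of Eif3j in all 6 libraries, so reads there were counted for both rows. RefSeq gives Gm9781 as an older name of Eif3j2, a copy on another chromosome, and 39.4% of the 50-base windows of Eif3j1 transcripts also occur in Eif3j2, so the source of these reads is uncertain.

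Eif3d, whose product can bind the cap of some mRNAs itself, rose from 155, 169 and 157 CPM to 217, 204 and 234 CPM (log2 fold change 0.45 ± 0.06, edgeR adjusted p = 0.000705). Eif3g, a subunit near the entry channel, rose from 71.7, 81.5 and 75.2 CPM to 104, 98.3 and 110.0 CPM (log2 fold change 0.45 ± 0.06, edgeR adjusted p = 0.000724). Eif3a, the gene of the largest subunit, rose from 559, 555 and 553 CPM to 731, 661 and 704 CPM (log2 fold change 0.33 ± 0.05, edgeR adjusted p = 0.00111). In each of the 3 genes the lowest stretch value lay above the highest control value. Eif3b, Eif3e, Eif3c and Eif3m rose 1.23-fold, 1.19-fold, 1.18-fold and 1.15-fold. Of these, Eif3m did not pass with library sizes alone (adjusted p = 0.0846).

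The 5 subunit genes that did not pass were Eif3f, Eif3h, Eif3i, Eif3k and Eif3l. Eif3f and Eif3h encode the MPN domain pair of eIF3. Eif3f was at 196 to 206 CPM in control and 185 to 194 CPM in stretch libraries, without overlap (log2 fold change -0.10 ± 0.04, edgeR adjusted p = 0.115), and was called lower with library sizes alone (log2 fold change -0.19, adjusted p = 0.0144). Eif3h had a log2 fold change of 0.03 ± 0.05, Eif3k of -0.03 ± 0.04 and Eif3l of 0.11 ± 0.05. Eif3i (0.13 ± 0.05, edgeR adjusted p = 0.0712) passed without control replicate 3 (adjusted p = 0.0457) and without stretch replicate 2 (0.0471).

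Levels per length show how evenly the eIF3 transcripts were present. On the RPKM scale, which uses library sizes without TMM, the subunits lay between 50.9 ± 2.53 (Eif3j) and 138 ± 5.50 (Eif3h) in control libraries (mean ± SD, n = 3). In stretch libraries they lay between 68.8 ± 3.65 (Eif3l) and 133 ± 4.89 (Eif3h). Within each library the highest subunit was Eif3h, and its ratio to the lowest was 2.72, 2.50 and 2.93 in control replicates 2, 3 and 4. The ratio was 1.99, 1.92 and 1.88 in stretch replicates 1, 2 and 4. The coefficient of variation over the 13 subunits was 23.1% to 27.7% in control and 16.7% to 19.1% in stretch libraries. Both measures were smaller in every stretch library than in any control library, but the first rests on Eif3j, the lowest subunit in each control library, whose reads are of uncertain source. Without Eif3j, a comparison chosen after seeing the data, the ratio was 2.25, 1.89 and 2.07 in control and 1.99, 1.92 and 1.88 in stretch libraries, and the groups overlapped. The coefficient of variation without Eif3j was 18.8% to 24.3% in control and 15.4% to 17.8% in stretch libraries, still apart. Low control levels did not go with a rise throughout: Eif3j, Eif3g and Eif3d rose, but Eif3l, at 67.5 RPKM in control, did not pass. Among the higher subunits Eif3h, Eif3f and Eif3k did not pass, while Eif3c and Eif3e (113 and 104 RPKM in control) rose.

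**Figure D3:**
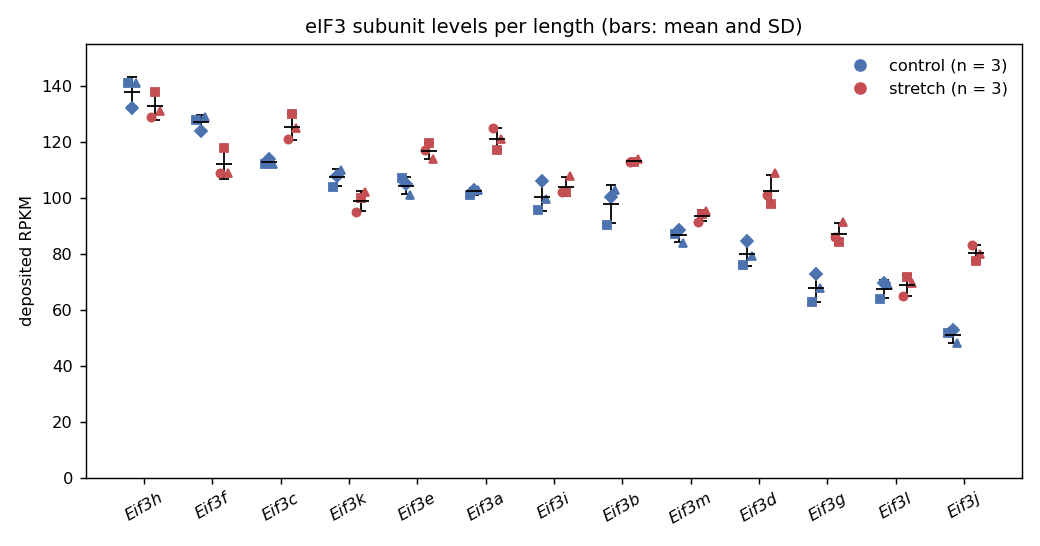
Deposited RPKM (y axis) of the 13 eIF3 subunit genes, ordered by control level, in 3 control (blue) and 3 stretch (red) libraries; squares are replicate 2, diamonds 3, triangles 4 and circles 1, and black bars give mean and SD. The stretch points of Eif3j lie far above its control points, and those of Eif3h, Eif3f and Eif3k do not.

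The eIF4F complex joins the cap-binding protein eIF4E, the scaffold eIF4G and the helicase eIF4A, and eIF4B and eIF4H assist the helicase. Of their 10 genes with reads, 7 rose and 0 fell. Eif4e (chromosome 3, 138526191 to 138557599) was at 70.9, 76.1 and 71.4 CPM in control replicates 2, 3 and 4. In stretch replicates 1, 2 and 4 it reached 124, 111 and 121 CPM, 1.63-fold higher (log2 fold change 0.70 ± 0.06, edgeR adjusted p = 7.67e-05). Eif4a1, the main eIF4A helicase gene (chromosome 11, 69666936 to 69672423), rose from 987, 1064 and 984 CPM to 1613, 1492 and 1677 CPM (log2 fold change 0.66 ± 0.06, edgeR adjusted p = 0.000115). For both genes every stretch library lay far above every control library. Of the 50-base windows of Eif4a1, 65.3% also occur in transcripts of other genes, mostly the pseudogene Eif4a-ps4, so part of its reads could come from such copies.

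Eif4g1, the main eIF4G scaffold gene (chromosome 16, 20672749 to 20692883), rose less than its partners. Its values were 752, 804 and 755 CPM in control and 888, 885 and 942 CPM in stretch libraries (log2 fold change 0.23 ± 0.05, edgeR adjusted p = 0.00656). Eif4g2 encodes a relative of eIF4G without the eIF4E site. Its level was 1212, 1260.3 and 1206 CPM in control and 1534, 1464 and 1515 CPM in stretch libraries (log2 fold change 0.29 ± 0.05, edgeR adjusted p = 0.00139). Eif4e2 encodes a cap-binding relative of eIF4E that can repress translation. It rose from 77.9, 83.2 and 80.9 CPM to 98.2, 94.2 and 95.3 CPM (log2 fold change 0.25 ± 0.04, edgeR adjusted p = 0.00251). In none of the 3 genes did the groups overlap. Eif4a2, the second eIF4A gene, rose 1.22-fold. Eif4h rose 1.12-fold (edgeR adjusted p = 0.0206), but its call was lost with library sizes alone (adjusted p = 0.235) and when control replicate 3 (0.0692), control replicate 4 (0.0716) or stretch replicate 4 (0.0609) was left out.

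Some genes of the same families did not pass. Eif4b was at 335 to 359 CPM in control and 337 to 344 CPM in stretch libraries (log2 fold change -0.02 ± 0.04, edgeR adjusted p = 0.70). Eif4g3, a second eIF4G scaffold, had a log2 fold change of 0.01 ± 0.05 and Eif4e3 of 0.02 ± 0.10. The ratio of Eif4a1 to Eif4a2 in RPKM, which no scaling between libraries touches, was 10.8, 13.2 and 11.5 in control and 15.5, 14.6 and 15.4 in stretch libraries. That of Eif4g1 to Eif4g3 was 5.70, 6.36 and 5.83 in control and 6.63, 7.14 and 7.08 in stretch libraries. Neither ratio overlapped between the groups (exact two-sided permutation p = 0.10 for each, the smallest that 3 against 3 can give, and 0.117 adjusted over 7 ratios).

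**Figure D4:**
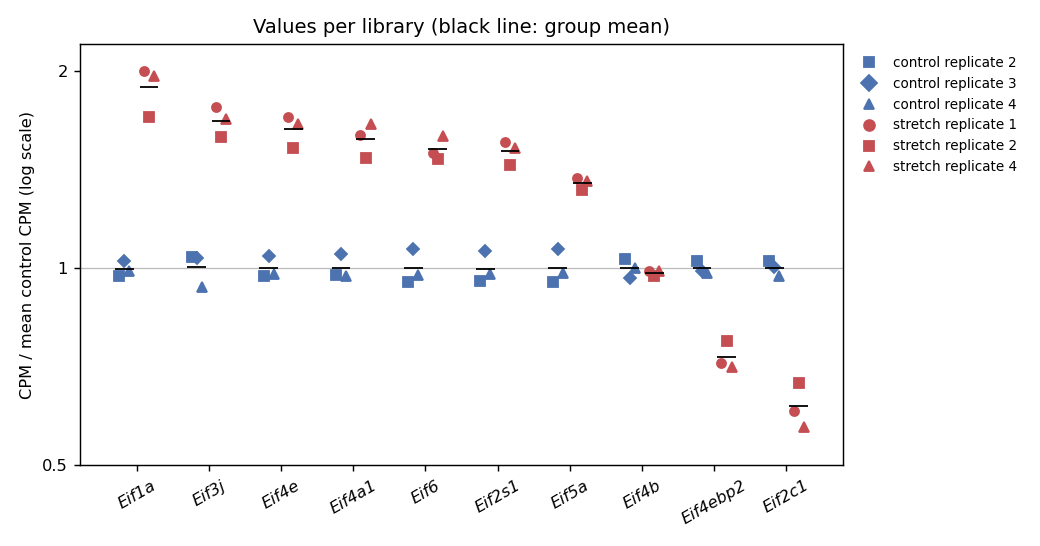
CPM divided by the gene's mean control CPM (y axis, log scale) for 10 members in each library; blue is control, red is stretch, symbols mark the replicate number and black lines the group means. Stretch points lie above all control points for the 7 genes from Eif1a to Eif5a, overlap them for Eif4b, and lie below them for Eif4ebp2 and Eif2c1.

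Promoter letters were read for the members after the values above were seen. They included the E-box CACGTG, which MYC-type factors, known regulators of Eif4e, bind. A part of such factors in these results was not tested. RefSeq windows of GRCm38.p6 (250 bases before to 50 after an annotated start) were found for 42 of the 53 members. The 11 without a window were Eif2b3, Eif1a, Eif3e, Eif3h, Eif3i, Eif4e3, Eif4g2, Eif4ebp1, Eif4ebp3, Eif6 and Eif2c2. The motif shares do not cover these genes. The E-box, which reads the same on both strands, was in a window of 10 of the 42 (23.8%), against 11.6% of 9593 tested coding genes with a window. It was in 6 of 26 members that rose and in 4 of 12 that did not pass. The stretches of 4 members that rose are shown with the E-box in capitals, 5′ to 3′ on the gene's strand. They are chr3:138527018-138527234 (plus), chr11:69672582-69672637 (minus), chr16:20672648-20672772 (plus) and chr11:69921430-69921485 (minus).
Eif4e: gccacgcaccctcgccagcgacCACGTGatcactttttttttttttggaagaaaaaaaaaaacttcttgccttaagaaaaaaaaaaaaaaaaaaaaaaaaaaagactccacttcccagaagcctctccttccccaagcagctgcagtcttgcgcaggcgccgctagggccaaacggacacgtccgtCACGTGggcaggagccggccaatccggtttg
Eif4a1: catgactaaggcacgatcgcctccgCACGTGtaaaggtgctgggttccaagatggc
Eif4g1: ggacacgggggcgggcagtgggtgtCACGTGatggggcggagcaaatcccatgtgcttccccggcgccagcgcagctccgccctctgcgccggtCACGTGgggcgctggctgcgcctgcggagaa
Eif5a: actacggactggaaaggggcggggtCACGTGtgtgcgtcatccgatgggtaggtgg

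Eif4e and Eif4g1 each hold 2 copies, and the Eif4e window belongs to the downstream one of its 2 annotated starts. The same letters stand in windows of members that did not pass, of which 2 eIF3 genes are shown for comparison, at chr7:108934322-108934377 (plus) and chr7:28981902-28981957 (minus).
Eif3f: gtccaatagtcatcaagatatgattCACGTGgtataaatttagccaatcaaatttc
Eif3k: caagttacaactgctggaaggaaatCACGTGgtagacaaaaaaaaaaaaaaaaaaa

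Of 4 other motifs searched on both strands, the ETS core CCGGAAG was in 38.1% of the 42 members and 18.7% of tested coding genes. The GC box GGGCGG was in 34 of the 42 and 67.7%, and CCAAT in 33.3% and 42.8%. Split by call, the ETS core was in 34.6% of 26 members that rose and 41.7% of 12 that did not pass. For the GC box these shares were 84.6% and 66.7%, and for CCAAT 23.1% and 58.3%. The amino acid response element TTGCATCA was in 0 of the 42 and 0.824%. A first base C with 4 pyrimidines after it at the annotated start, the form of a terminal oligopyrimidine mRNA, was in Eif2s3x and Eif3f (4.76%, against 2.88%). Matches of letters are not shown to be binding sites.

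The 4E-binding proteins block eIF4E until mTORC1 phosphorylates them, and their genes differed in direction. Eif4ebp1 was at 214, 219 and 191 CPM in control and 242, 255 and 249 CPM in stretch libraries (log2 fold change 0.26 ± 0.06, edgeR adjusted p = 0.00765). Eif4ebp2 (chromosome 10, 61432497 to 61452669) fell from 89.2, 86.2 and 85.6 CPM to 62.4, 67.4 and 61.4 CPM, 1.36-fold (log2 fold change -0.45 ± 0.05, edgeR adjusted p = 0.000250). It was the single gene outside the Argonautes called lower, and its stretch libraries all lay below its control libraries. Eif4ebp3 was scarce at 5.31 to 6.11 CPM over all libraries and did not pass. Eif4enif1, which encodes an eIF4E transporter that represses bound mRNAs, did not pass either (log2 fold change 0.11 ± 0.05, edgeR adjusted p = 0.113).

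Ratios within libraries put these genes side by side. The RPKM ratio of Eif4ebp1 to Eif4ebp2 was 4.36, 4.62 and 4.05 in control and 7.07, 6.88 and 7.37 in stretch libraries, a difference of 0.71 in log2 ratio. The ratio of Eif4e to Eif4ebp1 was 0.113, 0.119 and 0.127 in control and 0.174, 0.148 and 0.165 in stretch libraries, a difference of 0.44. Per length, Eif4ebp1 transcripts thus stayed more abundant than those of Eif4e in all 6 libraries. Both ratios were apart in all libraries (exact two-sided permutation p = 0.10, adjusted p = 0.117 over 7 ratios).

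**Figure D5:**
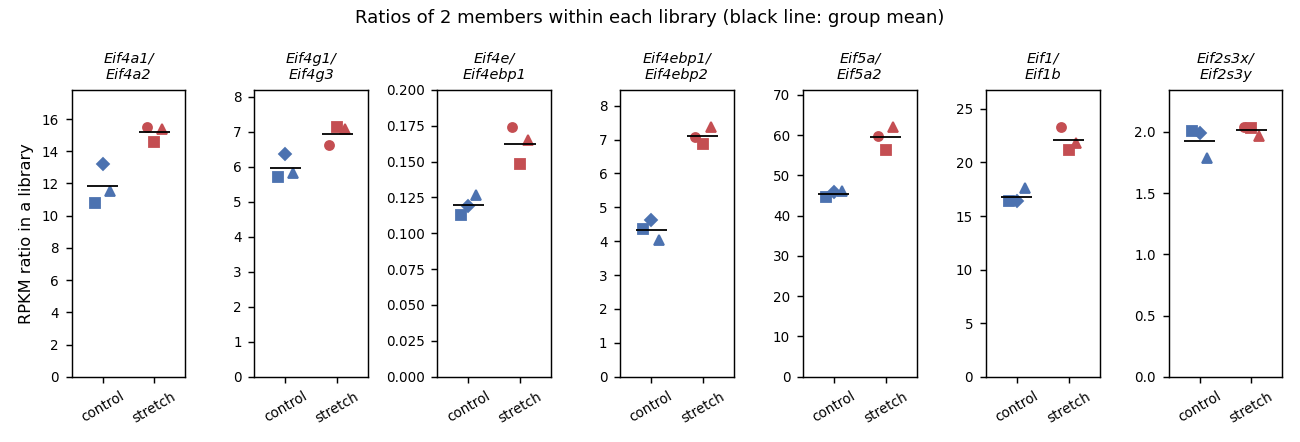
Ratio of deposited RPKM of 2 members within each library (y axes start at 0) in control (blue) and stretch (red); squares are replicate 2, diamonds 3, triangles 4, circles 1, and black lines are group means. In 6 of the 7 panels all red points lie above all blue ones, and Eif2s3x/Eif2s3y overlaps.

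Among the remaining factors, 4 of 7 rose. Eif6 encodes a protein that keeps the large subunit from joining too early and is needed to make it (chromosome 2, 155819837 to 155826925). It rose from 162, 182 and 166 CPM to 255, 249 and 270.4 CPM (log2 fold change 0.60 ± 0.06, edgeR adjusted p = 0.000133). Eif5a encodes the hypusine-bearing factor that aids peptide bond formation at difficult stretches. It rose from 475, 533 and 490.3 CPM to 686, 657 and 677 CPM (log2 fold change 0.43 ± 0.05, edgeR adjusted p = 0.000457). Stretch and control libraries did not overlap in either gene. Its relative Eif5a2 stayed within 26.3 to 28.8 CPM in control and 27.0 to 28.8 CPM in stretch libraries, and the RPKM ratio of Eif5a to Eif5a2 was 44.6 to 46.0 in control and 56.4 to 62.0 in stretch libraries.

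Eif1ad, a nuclear relative of eIF1A, rose from 44.5, 43.2 and 43.9 CPM to 51.4, 53.0 and 54.2 CPM (log2 fold change 0.27 ± 0.04, edgeR adjusted p = 0.00162). Eif4a3, the helicase of the exon junction complex, rose from 91.6, 95.6 and 99.7 CPM to 111, 114 and 114 CPM (log2 fold change 0.24 ± 0.05, edgeR adjusted p = 0.00343). Both changes were close to the median of all members. Eif2a and Eif2d encode single-chain factors that can deliver tRNA without eIF2 and are not subunits of it. They had log2 fold changes of 0.05 ± 0.04 and 0.08 ± 0.06 and did not pass (edgeR adjusted p = 0.367 and 0.339).

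Ordered by level per length, the members spanned a wide range. In control libraries Eif4a1 was highest at 513 ± 25.8 RPKM, followed by Eif1 at 433 ± 12.6, Eif5a at 236 ± 16.3, Eif4ebp1 at 202 ± 12.9 and Eif4h at 181 ± 3.95 RPKM (mean ± SD, n = 3). The same 5 led in stretch libraries, with Eif4a1 at 760.1 ± 32.0 and Eif1 at 565 ± 21.0 RPKM. Lower in the order, Eif6 at 108 ± 7.53 RPKM in control did not differ from its neighbours Eif3c (113 ± 1.15) and Eif3k (107 ± 3.09) beyond its spread, while the libraries of Eif3c and Eif3k did not overlap. By this measure Eif6 ranked 11 in control and 7 in stretch libraries, and Eif4e, at 24.1 ± 1.13 and 36.9 ± 1.51 RPKM, ranked 37 and 32. The cap-binding subunit was thus the scarcest of the 3 main eIF4F transcripts in both groups.

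The Argonaute genes, which the rule takes in by their older symbols, showed the opposite pattern for 3 of 4. Eif2c1 (Ago1; chromosome 4, 126435013 to 126468421) fell from 91.7, 89.8 and 87.0 CPM to 54.2, 59.8 and 51.2 CPM, 1.62-fold (log2 fold change -0.70 ± 0.06, edgeR adjusted p = 0.00010). Eif2c4 (Ago4) fell from 15.2, 14.9 and 13.7 CPM to 9.24, 10.1 and 9.99 CPM (log2 fold change -0.58 ± 0.08, edgeR adjusted p = 0.000666). Eif2c3 (Ago3) fell from 33.8, 30.8 and 27.7 CPM to 20.6, 26.3 and 22.4 CPM (log2 fold change -0.41 ± 0.10, edgeR adjusted p = 0.0120). For each of the 3, stretch libraries lay below all control libraries, though the call of Eif2c3 was lost without control replicate 2 (adjusted p = 0.0536). These 3 genes are neighbours on chromosome 4, between 126340678 and 126533458. Eif2c2 (Ago2, the slicing Argonaute; chromosome 15, 73101625 to 73184947) rose from 116, 125 and 108 CPM to 165, 148 and 144 CPM (log2 fold change 0.39 ± 0.07, edgeR adjusted p = 0.00274). Counting these genes among the initiation factors therefore supplied 3 of the 4 lower calls.

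Genes that control or assist initiation were mixed, and their counts stand beside the 21.4% higher and 22.6% lower among all genes tested. With library sizes alone these shares were 14.7% and 30.2%, and without stretch replicate 1 they were 18.1% and 19.0%. Of 10 genes (for eIF2 alpha kinases, for the phosphatase that reverses them, and Dnajc3, which was not called), 5 rose and 3 fell. With library sizes alone 4 were called higher and 4 lower. Ppp1r15a, the stress-induced phosphatase subunit GADD34, rose from 186, 195 and 173 CPM to 273, 250.4 and 299 CPM (log2 fold change 0.57 ± 0.07), and the phosphatase genes Ppp1cb and Ppp1r15b rose by 0.32 and 0.27 on the log2 scale. The 3 that fell, named after their values were seen, were the kinases Eif2ak2, Eif2ak3 and Eif2ak1 (log2 fold changes -0.39, -0.24 and -0.20). Eif2ak4, the kinase that senses uncharged tRNA and likewise named afterwards, rose (0.28 ± 0.05). Of 15 genes of mTORC1 and MNK control of eIF4E, 3 rose and 7 fell, with 2 higher and 9 lower under library sizes alone and 2 higher and 5 lower without stretch replicate 1. Mknk2, a kinase that phosphorylates eIF4E, fell from 209, 196 and 218 CPM to 143, 138 and 139 CPM (log2 fold change -0.57 ± 0.05). Larp1, which binds terminal oligopyrimidine mRNAs, rose 1.48-fold, and Rheb, the activator of mTORC1, rose 1.33-fold.

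Of 21 partners of initiation factors, 12 rose and 2 fell. Pdcd4, an inhibitor that holds eIF4A away from eIF4G, fell 2.24-fold, from 27.2, 20.9 and 24.4 CPM to 10.5, 10.6 and 11.2 CPM (log2 fold change -1.17 ± 0.10, edgeR adjusted p = 8.53e-05). Ctif, a cap-binding complex partner, fell 1.42-fold, and the ribosome recycling factor Abce1 rose (log2 fold change 0.49 ± 0.05). With library sizes alone 7 of these 21 were called higher and 3 lower, where 14.7% and 30.2% of all genes were. Of 11 elongation and release factors, 5 rose and 1 fell. Called higher and lower were 3 and 2 under library sizes alone, and 3 and 1 without stretch replicate 1 (18.1% and 19.0% of all genes). The release factors Etf1 and Gspt1 rose 1.64-fold and 1.34-fold, and Eef1e1, a multisynthetase complex subunit, rose 2.01-fold, while Eef1a1 and Eef2, the main tRNA delivery and translocation factors, did not pass (log2 fold changes -0.09 ± 0.05 and -0.02 ± 0.05). The 1 that fell, named after its value was seen like Eef1a1 and Eef2, was Eef2k, the kinase that inhibits eEF2 (log2 fold change -0.58 ± 0.08).

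Of 9 mitochondrial translation factors, 2 rose and 1 fell, where 21.4% and 22.6% of all genes tested were called. Gfm1 and Tufm rose by log2 fold changes of 0.18 and 0.17, and the release factor gene Mtrf1 fell (-0.44 ± 0.14). Without stretch replicate 1, 1 was called higher and 0 lower by edgeR, where 18.1% and 19.0% of all genes were. With library sizes alone 0 were higher and 3 lower, where 14.7% and 30.2% of all genes were. The mitochondrial initiation factors Mtif2 and Mtif3, also named after their values were seen, did not pass (log2 fold changes -0.16 ± 0.06 and -0.05 ± 0.07, edgeR adjusted p = 0.0730 and 0.584).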

How the data were processed

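RNA was sequenced with a TruSeq kit, per the labels, in 3 control and 3 stretch libraries, grouped by their titles. Raw counts per gene and RPKM values (per kilobase of a column named coding length, which holds UTR-sized lengths) were deposited by the authors. GRCm38 (mm10), featureCounts, TopHat2 2.1.0 and edgeR are named in the submitters' processing notes, without saying what each did, and give no strand setting. Overlapping genes can therefore share reads, which concerns 5 members besides small RNAs in introns (Eif5b, Eif4a2, Eif3m, Eif3j and Eif2a). Besides Eif4a1 and Eif3j, the largest shares of 50-base windows found in other genes' transcripts were in Eif4ebp3 (65.5%), Eif3m (37.1%), Eif2s3x (35.4%) and Eif3h (26.2%). The authors' deposited table also gives, per gene, a log2 fold change, mean log2 CPM, a likelihood ratio score, a p-value and an FDR, per the file headers.

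Counts of the whole table were fitted with edgeR 4.0.16 in R 4.3.3 (TMM, filterByExpr, quasi-likelihood F test, Benjamini-Hochberg over 14222 genes). The SE of a log2 fold change is its size over the square root of F. The steps were also run on simulated data. There all genes had the same spread and the changes were larger than most of those here, so single calls are not checked by it. Alternatives used RLE factors, library sizes alone, no filter, 10 reads in 3 libraries, DESeq2 1.42.0, limma-voom (limma 3.58.1), glmTreat, a fit blocked by replicate number, and fits without 1 library each. Ratios were compared by exact permutation tests. Named genes are up to 4 called members of each complex with the smallest p, 7 members named whatever their result (Eif2s1, Eif2b5, Eif4e, Eif4g1, Eif4ebp1, Eif5a and Eif6), and up to 3 called genes per pathway list. Others are given by range or fold change. The members, lists, motifs and rule were chosen with earlier results of these data known.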

Additional observations from a re-analysis of the deposited data

How the results depend on the processing

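With RLE factors, no filter, the filter of 10 reads in 3 libraries and limma-voom, all 53 members kept their direction and call, and with DESeq2 1 gene gained a call (Eif3i, adjusted p = 0.0410). Against a fold of 1.2, 13 members were called higher instead of 33. Leaving out each library in turn gave 31 to 34 higher and 3 to 5 lower, and 33 of the 37 calls held each time. Of all genes, 16.2% to 20.9% were called higher and 16.6% to 19.8% lower in these fits. Genes near 0 changed sign. With library sizes alone log2 fold changes were -0.01 for Eif2d and Eif1b, -0.04 for Eif2a, -0.05 for Eif5a2, -0.06 for Eif3h, -0.07 for Eif4e3, and -0.08 for Eif4g3 and Eif4ebp3. Without single libraries log2 fold changes ran from -0.01 to 0.06 for Eif3h, from -0.05 to 0.00 for Eif4b, from -0.04 to 0.06 for Eif4ebp3, from -0.00 to 0.06 for Eif4g3 and from -0.04 to 0.10 for Eif4e3. None of these was called in either fit. The cause of these changes was not tested.

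The labels number a control and a stretch library 2, and another such pair 4, without saying that a number marks a shared isolation. Deviations from the group means correlated across genes at 0.212 and 0.114 for the same-numbered pairs, and between -0.204 and 0.18 for other pairs. With the replicate number as a block, 35 members were called higher and 4 lower, where 19.1% and 20.1% of all genes were. Eif2s3y and Eif4h lost their calls (adjusted p = 0.0991 and 0.0733), Eif2b5, Eif3i, Eif3l and Eif4enif1 gained one (0.0324, 0.0371, 0.0399 and 0.0474), and Eif4g3 was at -0.02.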
